A study of Arabidopsis thaliana with 12 samples.

Results

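The data described here are the earliest point of a time course of sulfur deficiency in Arabidopsis thaliana, the comparison of whole roots 3 h after transfer to sulfur-deficient medium with roots at 0 h. The 4 arrays were chosen by their labels, 2 for the 3 h group and 2 for the 0 h group, out of 12 arrays in the series. Both groups were whole roots of ecotype Columbia, with no mutant or transgene named in the labels, from seedlings that had grown for 5 days on standard medium. The 0 h seedlings were moved to fresh standard medium and carried no sulfur treatment. The 3 h seedlings were moved to a medium in which magnesium and trace metals were supplied as chlorides and which also held sucrose, and which the labels call sulfur-deficient. The sources used here do not give the composition of the standard medium. There were 8 further arrays, 2 at each of 12, 24, 48 and 72 h on the deficient medium. The labels name no control on standard medium at 3 h, so the effects of sulfur deficiency, of the change of medium and of the hour of harvest cannot be told apart, and "rose" and "fell" below mean a difference from 0 h.

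Plants take up sulfur as sulfate. ATP sulfurylase activates it, a reductase and sulfite reductase turn it into sulfide, and sulfide is built into cysteine, from which glutathione and methionine are made. Plants of the cabbage family also put sulfur into glucosinolates, defence compounds that a glucosidase can split, and roots that run short of sulfur are known to raise transporters and a set of marker genes while holding back glucosinolate synthesis.

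RNA was hybridised to Affymetrix arrays with 1 colour, and the deposited values were 1 signal per probe set and array. The 2% trimmed mean signal was 250.02 to 250.03 on all arrays, so the arrays had been set to 1 scale, and log2 of the signal was compared. Median signals of the 4 arrays were 82.3 to 88.0. Log2 signals of the tested probe sets correlated at 0.969 between the 0 h arrays and at 0.966 between the 3 h arrays, and at 0.917 to 0.943 between a 0 h and a 3 h array. In an actin control the 3' probe set exceeded the 5' one 2.78-fold and 3.27-fold on the 0 h arrays and 3.12-fold and 3.44-fold on the 3 h arrays, and the groups overlapped. Another actin control gave 27.1 and 26.8 at 0 h and 27.4 and 33.9 at 3 h, with the 3 h arrays just above, and the part of RNA quality in the results was not tested. The labels number the replicates but do not say that they came from separate cultures. A p-value here therefore measures the spread between the 2 arrays of a group, pooled over all 6 groups, and that spread may be only technical.

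Testing was limited to probe sets whose signal exceeded the array's 40th percentile on at least 2 of the 12 arrays, and "passed" below means an adjusted p under 0.05 in limma over all 14678 probe sets tested. Of these, 1755 differed between 3 h and 0 h, which is 12.0% of those tested. In the 3 h roots 796 were higher (5.42%) and 959 lower (6.53%), a balance that depends on the scaling, since median centring gave 966 higher and 823 lower. The median log2 difference was 0.93 among those higher and -1.03 among those lower, against -0.01 over all probe sets tested. Differences of at least 4-fold numbered 63 upward and 123 downward, and those of at least 8-fold 14 upward and 43 downward. Of 7883 genes with a tested probe set of their own, 854 passed (10.8%), 361 higher (4.58%) and 493 lower (6.25%). The counts of gene lists below are given beside these shares. The lists and their members were chosen with earlier results of these data known, so a list share above these is no test. Of 762 entries of the lists drawn up by locus, 131 had a named probe set of their own, so the lists are covered in part. The 3 h arrays lay wholly above the 0 h arrays in 22.0% of the probe sets tested and wholly below them in 25.5%, passed or not. With the 4 arrays fitted alone, without the spread of the later groups, 922 probe sets passed.

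**Figure D1:**
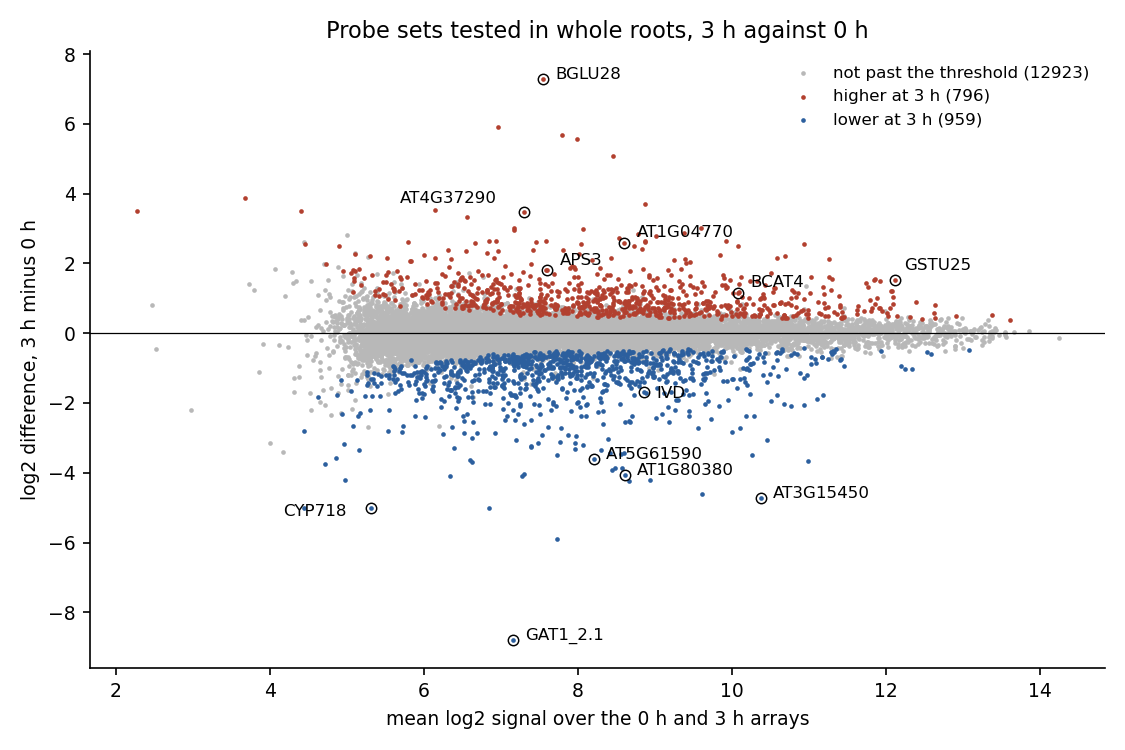
Log2 difference between 3 h and 0 h (vertical axis) against the mean log2 signal of the 4 arrays (horizontal axis) for the 14678 probe sets tested, with each point 1 probe set. Red points are the 796 that were higher and blue points the 959 that were lower, and BGLU28 and GAT1_2.1 are the ringed genes at the top and the bottom.

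Both measured genes of the sulfur deficiency marker list rose within 3 h. The list has 10 entries, of which 2 had a probe set of their own. BGLU28 encodes a beta-glucosidase that is widely used as a sign of low sulfur, and its 0 h signals of 15.8 and 14.0 became 1930 and 2825 at 3 h. It was the named gene with the highest log2 difference, 7.29 ± 0.31 (SE, n = 2 arrays a group, limma adjusted p = 9.65e-09). Both 0 h signals lay below the 40th percentile of their arrays, so the size is uncertain, and with that percentile as the floor the rise was at least 47.2-fold. AT1G04770 (SDI2), a sulfur deficiency gene, was read well above that percentile on every array, at 156.1 and 161.2 at 0 h and 1030 and 873.2 at 3 h. The groups were far apart, with a log2 difference of 2.58 ± 0.18 (SE, limma adjusted p = 5.75e-07).

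Among enzymes of sulfate assimilation, 1 of 3 measured rose, out of 24 entries in the list. APS3, an ATP sulfurylase, went from 104.6 and 101.6 at 0 h to 339.7 and 392.2 at 3 h, a log2 difference of 1.82 ± 0.18 (SE, limma adjusted p = 1.14e-05). The 2 arrays of each group lay close together and the groups did not overlap. APS4, another ATP sulfurylase, read 1808 and 1759 at 0 h and 1650 and 1375 at 3 h. Its log2 difference of -0.24 did not pass (95% interval -0.67 to 0.19). Sulfite reductase SIR read 1568 and 1366 at 0 h and 1967 and 1789 at 3 h, a difference of 0.36 that did not pass. No entry of the sulfate transport list had a tested probe set of its own.

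In glucosinolate synthesis 3 of 6 measured genes rose at 3 h and none fell. The list has 44 entries, of which 7 had a probe set of their own. The median log2 difference of the 6 was 0.77. BCAT4 encodes an aminotransferase of the first step of methionine chain elongation and read 738.2 and 716.0 at 0 h and 1421 and 1840 at 3 h, a log2 difference of 1.15 ± 0.17 (SE, limma adjusted p = 0.000357). UGT74B1, a glucosyltransferase of the core pathway, read 364.1 and 447.4 at 0 h and 796.8 and 719.9 at 3 h, a difference of 0.91 ± 0.19 (SE). For both genes the 3 h arrays lay above the 0 h arrays by more than the spread within a group. AT2G31790, listed in the same pathway, read 189.1 and 171.6 at 0 h and 364.2 and 370.9 at 3 h. Its difference of 1.03 passed with all arrays and did not pass when 1 of the 4, whichever, was left out (0.96 to 1.10). The glutathione transferase GSTU20 stood at 0.64, and the glucosinolate transporters GTR1 and GTR2 stood at 0.45 and -0.25, none of them past the threshold. The 1 measured gene of the glucosinolate breakdown list did not pass.

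None of the 6 measured genes of the glutathione and methionine lists passed. The glutathione reductases GR1 and GR stood at log2 differences of 0.36 and 0.23, and AT1G44790 of the same list at 0.47. In the methionine list, methionine gamma-lyase MGL, which breaks methionine down, stood at 0.55, the homocysteine methyltransferase HMT-1 at 0.48 and cystathionine beta-lyase CBL at 0.02. Among methionine sulfoxide reductases, which repair oxidised methionine, 1 of 4 rose. That was MSRB5, which went from 2471 and 2620 to 4373 and 5604, a difference of 0.96 ± 0.13 (SE, limma adjusted p = 0.000196). MSRB6 read 440.5 and 731.6 at 0 h and 788.2 and 1292 at 3 h, and its difference of 0.83 did not pass.

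**Figure D2:**
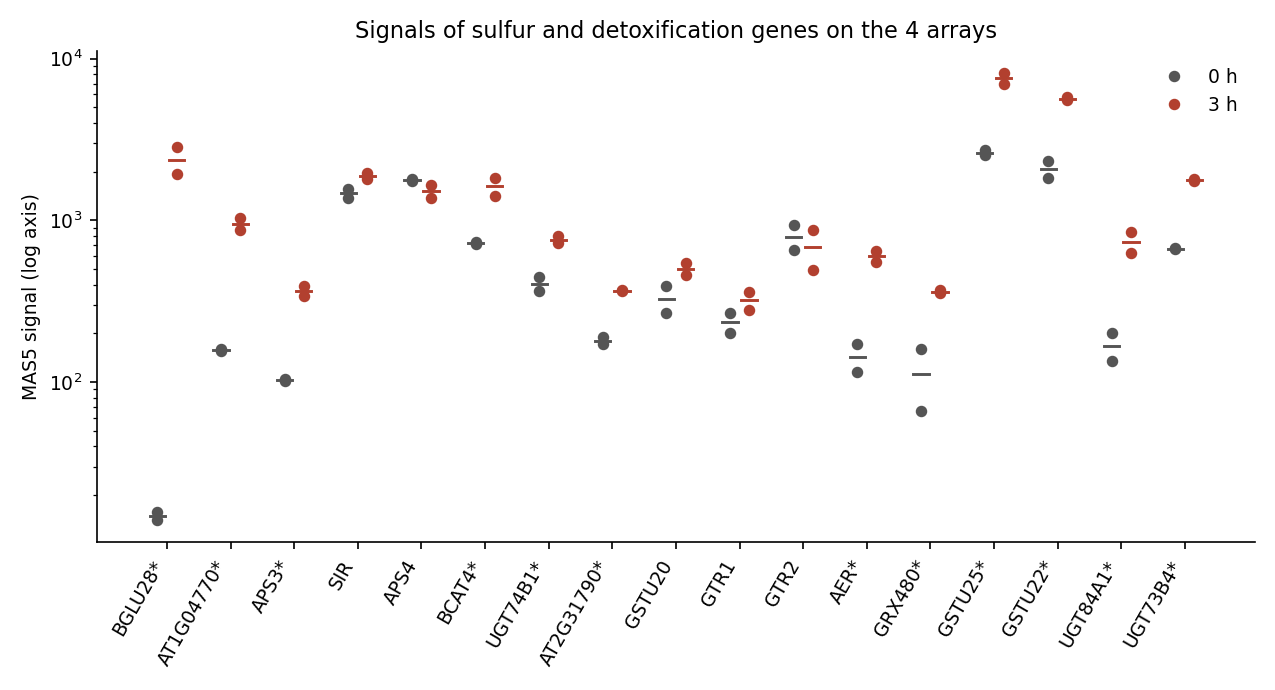
Deposited MAS5 signal (vertical axis, log scale) of sulfur, glucosinolate and detoxification genes on each of the 2 arrays at 0 h (grey) and at 3 h (red), with the group means as bars and an asterisk on genes that passed. BGLU28 spans the widest range, from 14.0 and 15.8 to 1930 and 2825, while the points of SIR, APS4 and GTR2 lie close to each other or overlap.

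Genes of detoxification also rose. Of 5 measured genes of the oxidative stress and detoxification list 4 rose and none fell, with a median log2 difference of 1.52 against -0.01 over all named genes. AER, an alkenal reductase, read 115.0 and 170.8 at 0 h and 553.3 and 647.6 at 3 h, a difference of 2.09 ± 0.19 (SE, limma adjusted p = 6.28e-06). GSTU25, a tau glutathione transferase, read 2533 and 2710 at 0 h and 6983 and 8134 at 3 h, a difference of 1.52 ± 0.12 (SE, limma adjusted p = 1.35e-06). The groups of both genes were well separated. The glutaredoxin GRX480 rose by 1.81, and its 0 h arrays differed widely, at 66.4 and 159.0, so that it stood at 1.18 without 0 h replicate 1. AT2G21640 rose by 1.28 but did not pass without 0 h replicate 1 (0.95). NQR, a quinone reductase, stood at -0.23 and did not pass. Over the tau glutathione transferases, which join glutathione to reactive compounds, 3 of 9 rose and 1 fell. GSTU22 rose from 1836 and 2331 to 5809 and 5520, by 1.45 on the log2 scale. GSTU18 rose by 1.12 but did not pass without either 0 h array or 3 h replicate 2 (0.79 to 1.14). GSTU28 fell by 1.24, from 472.1 and 692.3 to 274.1 and 213.1.

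Of 31 measured genes with a UDP-glycosyltransferase symbol, 10 rose and 3 fell, with a median log2 difference of 0.18. These enzymes attach sugars to small molecules. The family was drawn up by symbol, so genes under other names, such as IAGLU below, are not counted. UGT84A1, which glucosylates hydroxycinnamic acids, read 201.7 and 134.6 at 0 h and 629.1 and 841.3 at 3 h, a difference of 2.14 ± 0.20 (SE, limma adjusted p = 9.39e-06). Its relatives UGT84A3 and UGT84A4 rose by 1.26 and 1.04. UGT73B4 read 661.4 and 673.4 at 0 h and 1758 and 1796 at 3 h, a difference of 1.41, and UGT73B5 rose by 1.51. UGT78D2 and UGT78D1, which add sugars to flavonoids, rose by 1.39 and 1.91. The call of UGT78D1 was lost without 0 h replicate 2 (1.56) or 3 h replicate 2 (1.44). UGT87A2 rose by 1.67. UGT71C2 fell by 1.53, UGT88A1 by 1.33 and UGT85A2 by 0.92. UGT71C2 read 206.9 and 206.8 at 0 h and 82.0 and 62.7 at 3 h. Some members of the family have similar sequences, and the files do not show whether their probes bind each other's transcripts.

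The named gene that fell furthest belonged to the sugar starvation list, a set known to be high when carbohydrate is short. Of 8 measured members 6 fell and none rose, with a median log2 difference of -1.27. GAT1_2.1, a glutamine amidotransferase, read 2642 and 3409 at 0 h and 32.4 and 1.42 at 3 h. Its fitted log2 difference was -8.79 ± 0.92 (SE, limma adjusted p = 2.18e-05). Both 3 h signals were below the 40th percentile, and with that percentile as the floor the gene was at least 63.5-fold lower at 3 h. AT1G80380 read 1579 and 1611 at 0 h and 99.6 and 91.5 at 3 h, so that both groups were tight, and it fell by 4.06 ± 0.24 (SE, limma adjusted p = 1.06e-07). ATL8, a gene of a ubiquitin ligase family, fell by 2.51. AKINBETA1, a subunit of the SnRK1 kinase that acts when energy is low, read 647.2 and 587.8 at 0 h and 226.9 and 226.7 at 3 h and fell by 1.44. XERICO, a RING-type protein gene, fell by 1.09. PPDK, pyruvate orthophosphate dikinase, fell by 1.06 but did not pass without either 0 h array or 3 h replicate 2 (-1.07 to -0.98).

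Breakdown of branched-chain amino acids, another pathway known to rise in carbon shortage, also held falls. Of 13 measured members of its list 4 fell and none rose, with a median of -0.31. IVD, isovaleryl-CoA dehydrogenase, read 724.8 and 949.9 at 0 h and 284.5 and 234.9 at 3 h and fell by 1.68 ± 0.25 (SE, limma adjusted p = 0.000473). MCCA, the biotin-carrying subunit of methylcrotonyl-CoA carboxylase, the next enzyme of leucine breakdown, fell by 1.57 from 535.3 and 948.2 to 275.1 and 207.9. Its partner subunit MCCB fell by 0.78 but did not pass without either 0 h array or 3 h replicate 1 (-0.83 to -0.53). AT5G38710, which the list also holds, encodes a proline dehydrogenase and not an enzyme of this pathway. It fell by 1.00 but did not pass without 0 h replicate 1 (-0.85) or 3 h replicate 2 (-0.57). ALDH6B2, a dehydrogenase of valine breakdown, stood at -0.41 and did not pass. Of 14 autophagy genes 1 fell, AT2G37840, by 0.87, and its call was lost without 0 h replicate 2 (-0.85) or 3 h replicate 2 (-0.63). The median of that list was -0.15. None of the 4 measured genes of the list of glycolysis and the citric acid cycle passed.

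**Figure D3:**
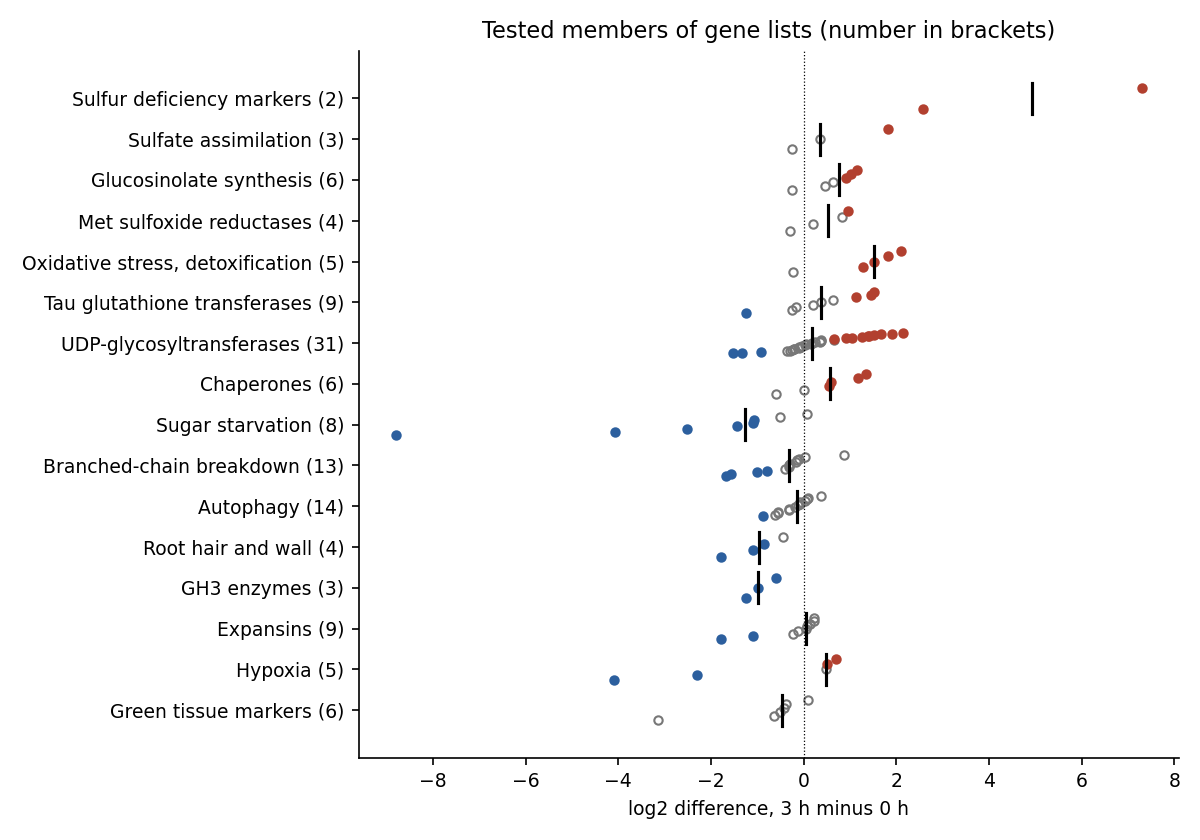
Log2 difference between 3 h and 0 h (horizontal axis) of each tested member of 16 gene lists and families, with the number tested in brackets. The chaperone and GH3 families among them were chosen after their values were seen, and the others with earlier results of these data known. Filled red points rose, filled blue points fell, open points did not pass, and the black bar is the median of the list. Both sulfur markers and 4 of 5 detoxification genes lie to the right of 0, and 7 of 8 sugar starvation genes to the left.

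Beside GAT1_2.1 and AT1G80380, the genes that fell furthest and stayed above the 40th percentile on all 4 arrays included AT3G15450 and the transcription factor AT5G61590 (DEWAX), which is known to repress wax synthesis. AT3G15450 read 6206 and 7508 at 0 h and 402.6 and 164.4 at 3 h, a log2 difference of -4.73 ± 0.35 (SE, limma adjusted p = 1.06e-06). AT5G61590 read 924.3 and 1146 at 0 h and 117.4 and 60.6 at 3 h, a difference of -3.61 ± 0.28 (SE, limma adjusted p = 1.35e-06). AT2G20670 fell by 3.46, AT1G23390 fell by 3.2 and AT5G24490 fell by 3.15. The cytochrome P450 gene CYP718 read 181.4 and 277.8 at 0 h and 5.88 and 8.32 at 3 h and was at least 4.75-fold lower, with the 40th percentile as the floor. On the same floor AT5G56100 was at least 7.26-fold lower, AT1G33055 at least 7.05-fold, AT3G49790 at least 5.57-fold, AT3G23880 at least 2.60-fold, AT3G01175 at least 2.41-fold, CCL at least 2.13-fold and AT3G07070 at least 1.97-fold. The call of AT3G01175 was lost without 0 h replicate 2 (-3.26), and AT3G07070 stood at -1.63 without 3 h replicate 2. At 3 h all 8 were dimmer than that percentile on both arrays.

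Outside the lists, the named gene that rose furthest was AT4G37290, from 49.9 and 44.8 at 0 h to 474.9 and 591.0 at 3 h, a log2 difference of 3.49 ± 0.20 (SE, limma adjusted p = 1.06e-07). AT1G60750 read 48.8 and 53.4 at 0 h and 409.1 and 410.7 at 3 h, and rose by 3.01. AT5G66985 read 449.8 and 396.8 at 0 h and 1885 and 2132 at 3 h, and rose by 2.25. In each of these genes the lower 3 h signal was over 4 times the higher 0 h signal. AT2G22590 rose by 2.65, AT4G36010 by 2.60, AT5G51440 by 2.55, AT5G18470 by 2.38 and AT4G02940 by 2.16. At 0 h, AT1G72490, AT5G15950, AT4G09110, AT5G37980 and AT1G75290 were dimmer than the 40th percentile on both arrays. With that percentile as the floor they were at least 2.77-fold, 3.69-fold, 1.96-fold, 1.72-fold and 1.08-fold higher at 3 h. AT5G37980 rested on single arrays, since its call was lost without 0 h replicate 2 (0.89) or 3 h replicate 2 (1.90) and its value was 3.54 without 0 h replicate 1.

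Several genes of hormone metabolism changed. In the auxin list 1 of 5 measured genes rose and 2 fell. WES1 and GH3.3, which join auxin to amino acids, fell by 1.25 and 0.99, and the related GH3.17 fell by 0.60. GH3.17 is not in the auxin list and came from the GH3 family, which was chosen after its values were seen. WES1 read 395.9 and 293.6 at 0 h and 127.4 and 160.9 at 3 h. GH3.3 lost its call without either 0 h array (-0.96 and -1.02) or 3 h replicate 2 (-0.58), and GH3.17 lost it without either 0 h array or 3 h replicate 2 (-0.74 to -0.28) or any 1 array of a later time (-0.60), and stood at -0.92 without 3 h replicate 1. AT1G14130 of the auxin list rose by 1.68, from 300.4 and 245.9 to 820.2 and 923.1. IAGLU, a glucosyltransferase of auxin that belongs to no list and was chosen after its value was seen, rose by 1.62. Of 3 measured gibberellin receptor genes, a family also chosen after its values were seen, GID1C and GID1A fell by 1.14 and 0.86. The other receptor gene stood at 0.33 and did not pass. The call of GID1C was lost without either 0 h array or 3 h replicate 2 (-1.22 to -0.74), and that of GID1A without 0 h replicate 1 (-0.56) or 3 h replicate 1 (-0.77). In the ethylene list 1 of 3 genes fell, which was AT5G61590, given above.

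Root hair genes were lower. Of 4 measured members of the root hair and wall list 3 fell, with a median log2 difference of -0.97. EXPA7, a root hair expansin that loosens the wall, read 682.1 and 906.2 at 0 h and 346.4 and 153.0 at 3 h and fell by 1.77 ± 0.29 (SE, limma adjusted p = 0.00104). EXPA18 read 562.1 and 646.3 at 0 h and 376.2 and 215.4 at 3 h and fell by 1.08, or by 0.68 without 3 h replicate 2. AT1G30870 fell by 0.85, stood at -1.32 without 3 h replicate 1, and lost its call without 0 h replicate 2 (-0.63) or 3 h replicate 2 (-0.37), and also when a single 48 h or 72 h array was left out (-0.85). In all 3 genes 3 h replicate 2 was the lowest array. In whole roots, fewer cells of a type and less RNA per cell cannot be told apart. Of 9 measured expansins these 2 fell and none rose. The beta-glucosidases BGLU45 and BGLU46, which act on lignin precursors, fell by 1.72 and 1.59, and in their family of 8 measured genes BGLU28 was the only one to rise.

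Of 3 measured clock genes GI rose, from 167.4 and 120.0 to 424.5 and 441.9 (log2 difference 1.61 ± 0.19, SE, limma adjusted p = 5.14e-05), and CCL fell, as given above. The sources used here do not give the hour of harvest. In the hypoxia list 2 of 5 genes rose and 2 fell. PDC2, a pyruvate decarboxylase of fermentation, rose by 0.71 but did not pass without 3 h replicate 2 (0.60), and AT4G17260 rose by 0.51 but did not pass without either 0 h array or 3 h replicate 2 (0.39 to 0.53) or either 72 h array (0.51). AT1G33055 and AT1G19530 fell. The 3 h signals of AT1G19530 lay under the 40th percentile, and with that percentile as the floor it was at least 1.68-fold lower. It did not pass without 0 h replicate 2 or either 3 h array (-2.31 to -1.81). In the iron deficiency list 1 of 5 rose, the regulator PYE, by 0.80 but did not pass without 0 h replicate 2 or either 3 h array (0.65 to 0.80). The metal transporter ZIP9 rose from signals below the 40th percentile, at least 1.93-fold with that floor, but did not pass without 0 h replicate 1 or either 3 h array (0.96 to 1.12). In the nitrogen list AT1G25550, 1 of 2 measured, fell by 1.01. Of the touch and wounding list none of 4 passed.

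Chaperone genes, a family chosen after its values were seen, gave 4 rises and no fall among 6 measured. Hop3, a co-chaperone that links heat shock proteins, read 85.3 and 89.2 at 0 h and 211.5 and 230.0 at 3 h and rose by 1.34. Fes1A, which protects a cytosolic heat shock protein, rose by 1.18 from 226.0 and 256.6 to 505.2 and 590.8. Hsp70-2 and Hop2 rose by 0.60 and 0.55. Hsp70-2 lost its call without either 0 h array or 3 h replicate 2 (0.43 to 0.62), and Hop2 lost it without 0 h replicate 2 (0.40) or 3 h replicate 1 (0.42), and also when a single 12 h or 24 h array was left out (0.55).

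Few markers of cell types could be measured. Neither measured gene of the root tip list nor of the endodermis list passed. The summed signal of the root tip markers was 298.4 and 300.5 at 0 h and 304.7 and 315.0 at 3 h. None of 6 measured green tissue markers passed, with a median log2 difference of -0.47 and summed signals that were 1859 and 2145 in the 0 h group against 1631 and 2059 in the 3 h group, which overlapped. LHCB4.2, a light-harvesting protein gene, had the lowest value of that list, at -3.13 (limma adjusted p = 0.0538), and went from 32.7 and 68.5 to 5.07 and 5.74. Both 3 h signals and that of 0 h replicate 1 were under the 40th percentile of their arrays, so the size is uncertain. No xylem or phloem marker had a tested probe set of its own. The marker values compare 3 h with 0 h and do not check the labelled tissue.

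The 3 h arrays were also set against the mean of the 8 arrays of 12, 24, 48 and 72 h, which uses none of the 0 h arrays, to ask where 3 h stood apart from later times on the same medium. Of the 14678 probe sets 1439 passed (9.8%), 614 higher at 3 h (4.18%) and 825 lower (5.62%). Among named genes 9.18% passed, 3.73% higher and 5.45% lower. Without 3 h replicate 2 the count was 591. Both comparisons share the 3 h arrays, so their values are given side by side and not as a result in common.

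In sulfate assimilation 2 of 3 genes were higher at 3 h than later. APS3 had mean signals of 365.9 at 3 h and 145.9, 132.5, 143.5 and 130.0 at 12, 24, 48 and 72 h, and stood at 1.41 ± 0.14 above the later mean (SE, limma adjusted p = 3.93e-05). APS4, which had not passed against 0 h, stood 1.70 above the later mean, with mean signals of 1512 at 3 h and 994.2, 872.5, 314.9 and 176.2 afterwards. In glucosinolate synthesis 4 of 6 genes were higher at 3 h than later and none lower. BCAT4 stood 2.44 above the later mean, its signal going from 1631 at 3 h to 542.9 at 12 h and 64.8 at 72 h, and AT2G31790 and UGT74B1 stood 1.48 and 0.91 above it. Both sulfur markers were also higher at 3 h than the later mean, BGLU28 by 1.80 and AT1G04770 by 0.53. Their courses were not alike. The mean signal of BGLU28 was 265.7 at 12 h and 2182 at 72 h, against 2377 at 3 h, and that of AT1G04770 stayed between 567.1 and 819.3 after a value of 951.8 at 3 h. MSRB6 stood 2.09 above the later mean, with mean signals of 1040 at 3 h and 70.9 at 72 h.

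Of the sugar starvation genes 5 of 8 were lower at 3 h than later, with a median of -0.69. The mean signal of GAT1_2.1 was 16.9 at 3 h and between 99.5 and 230.0 at the later times, all below its 3025 at 0 h. AT1G80380 went from 95.6 at 3 h to between 178.7 and 442.2, against 1595 at 0 h. None of the 13 measured genes of the branched-chain breakdown list differed from the later mean, and IVD stood at -0.37. Among the UDP-glycosyltransferases counted above 10 were higher and 4 lower at 3 h than later, and UGT84A1 stood 1.37 above the later mean. Of the tau glutathione transferases 4 of 9 were higher, while GSTU25 stood at 0.22 and did not pass, its mean signal being 7559 at 3 h and 6221 to 6743 later.

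**Figure D4:**
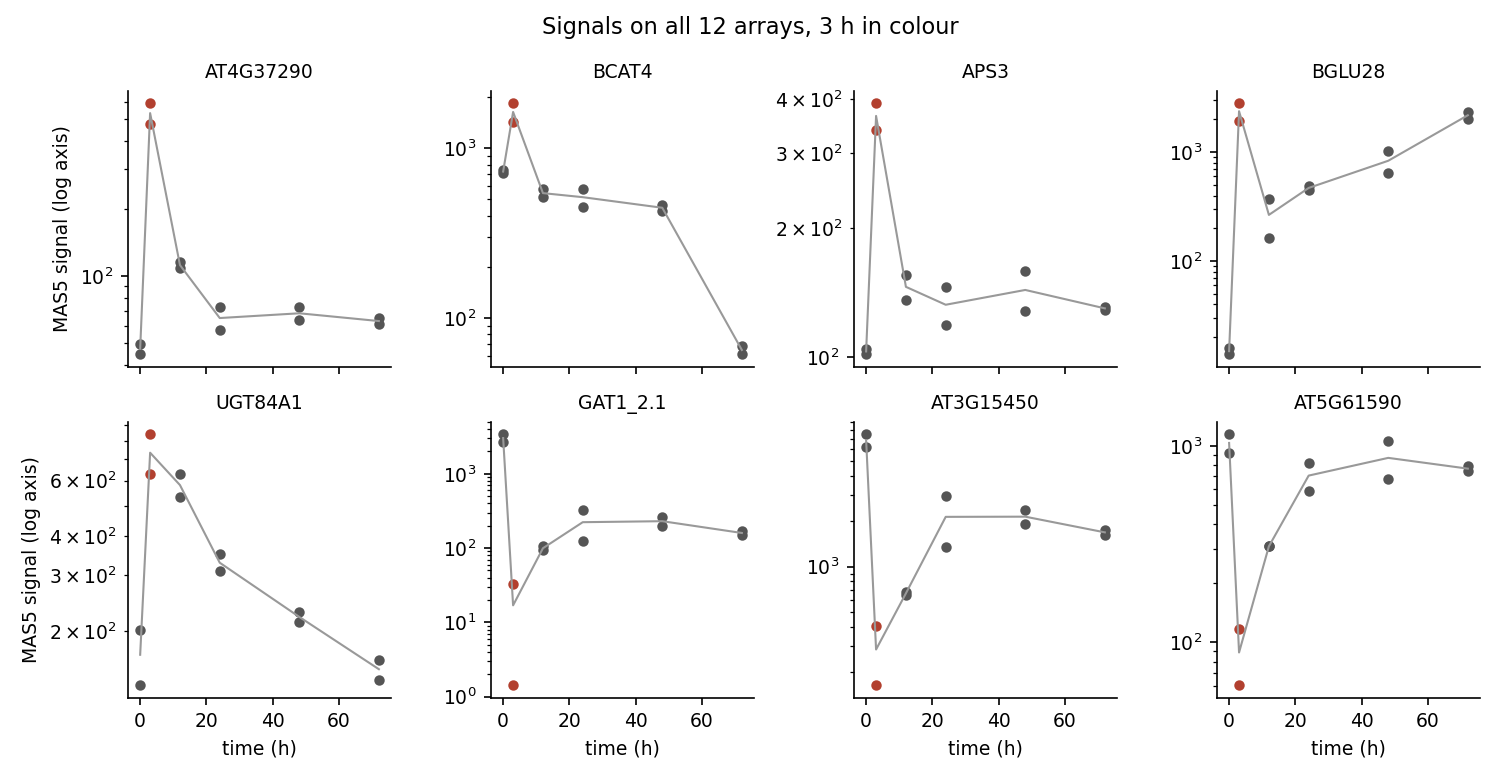
MAS5 signal (vertical axes, log scale) of 8 genes on all 12 arrays against time on deficient medium in h (horizontal axes), with the 3 h arrays in red, the others in grey, and a line through the group means. In AT4G37290, BCAT4 and APS3 the 3 h arrays lie above all others, and in GAT1_2.1, AT3G15450 and AT5G61590 below all others.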

How the data were processed

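RNA of whole roots was measured on 12 arrays in 6 groups of 2. The authors deposited 1 linear intensity signal for each probe set, and the submitters' processing notes name MAS5, which subtracts local background and combines the probes of a set. Neither the scaling target nor detection calls are given in the sources used here. Log2 of the deposited signal was taken with no offset. Of 22746 probe sets that were no controls, 14678 were above the 40th percentile of the array on at least 2 arrays. Group means were fitted over all 12 arrays with limma 3.58.1 in R 4.3.3 (6 residual degrees of freedom, eBayes with trend, Benjamini-Hochberg adjustment). The same fit was run on simulated data with independent noise. That simulation held no effect of dim signal, scaling or shared cultures, and no result here rests on it. Precision is limited by the few arrays.

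Names came from the platform annotation and the TAIR10.1 gene table. There were 13513 probe sets with 1 gene, 503 with several, which were not named, and 8730 with none listed. The probe set with the highest mean log2 signal stood for a gene. Members and lists were chosen with earlier results of these data known. For 28 families the members were found by gene symbol, so members under other names were left out. After values were seen, 8 families were added, among them the chaperones, the GH3 family and the gibberellin receptors. The rule named the 15 highest and 15 lowest past the threshold with separate groups and a bright higher group, all measured genes of the sulfur lists, up to 6 by p of each other list, and the 10 highest and 10 lowest against later times. Of other lists, members that did not pass are mostly given as counts. Promoter motifs were not analysed here. Alternatives were an offset of 16.3, quantile normalization, median centring, no filter, a 60th percentile filter, no trend, the replicate block, a fit of the compared arrays alone, and leaving out 1 array in turn.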

Additional observations from a re-analysis of the deposited data

Results flagged for a closer look

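The level at 3 h was tested against the mean of 12, 24, 48 and 72 h in the same limma fit, and 1439 probe sets differed. The 10 highest and 10 lowest genes past the threshold whose 3 h arrays lay on 1 side of all 8 later arrays, with the higher group above the 40th percentile, are given here as log2 differences with no explanation. Where the lower group was below that percentile on all its arrays the order and size are uncertain, and the floor fold is the one that can be read.

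Higher at 3 h were AT5G22530 at 3.52, AT4G37290 at 2.83, BCAT4 at 2.44, the stress zinc finger gene STZ at 2.26, AT2G25510 at 2.25, the laccase gene LAC16 at 2.24, AT1G21520 at 2.24, AT4G27654 at 2.05, AT3G05950 at 2.05 and AT1G05450 at 2.01. AT5G22530, LAC16, AT1G21520, AT4G27654 and AT1G05450 were below the 40th percentile on all 8 later arrays, and with that floor were at least 1.84-fold, 2.50-fold, 1.64-fold, 1.90-fold and 2.07-fold higher at 3 h. Of the 10, AT4G37290, BCAT4, LAC16 and AT1G05450 also passed against 0 h. AT5G22530 and AT1G21520 passed there with the offset (1.83 and 1.50 on the scale with the offset) and with the 4 arrays alone, AT5G22530 also without 72 h replicate 1 and AT1G21520 without either 24 h array, while AT4G27654 and AT3G05950 passed without 3 h replicate 1 (2.52 and 1.93), and AT4G27654 without 0 h replicate 2 (2.81). The 0 h signals of LAC16 and AT1G05450 lay under the 40th percentile, and both genes were at least 2.34-fold and 1.94-fold higher than at 0 h with that floor. LAC16 did not pass without 0 h replicate 2 or either 3 h array (1.38 to 2.12). AT1G05450 did not pass when any 1 of the 4 arrays was left out (1.35 to 1.89), nor without either 72 h array. STZ read 147.9 and 748.1 at 0 h and 152.8 and 1059 at 3 h, so its replicates lay further apart than its groups. The test against later times was lost without 3 h replicate 2 for AT5G22530 (3.28), STZ (0.86), LAC16 (2.2), AT1G21520 (1.83), AT4G27654 (1.27) and AT3G05950 (1.23), and without 3 h replicate 1 for AT5G22530 (3.76), AT1G21520 (2.65) and AT1G05450 (1.74). AT1G21520 also lost it without either array of 12, 48 or 72 h (2.2 to 2.28).

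Lower at 3 h were GAT1_2.1 at -4.59, CYP718 at -3.88, AT5G61590 at -2.86, AT3G07070 at -2.64, AT3G15450 at -2.52, AT1G19900 at -2.44, AT3G49790 at -2.25, AT2G39040 at -2.11, AT2G34340 at -2.03 and AT3G07350 at -1.88. GAT1_2.1, CYP718, AT3G07070 and AT3G49790 had 3 h signals under the 40th percentile, and with that floor were at least 3.46-fold, 2.17-fold, 1.37-fold and 2.69-fold lower than at later times. All 10 also passed against 0 h, where AT1G19900 fell by 2.71, AT2G39040 by 2.03, AT3G07350 by 2.33 and AT2G34340 by 1.24. The call of AT2G34340 against 0 h was lost without 0 h replicate 1 (-0.85) or 3 h replicate 2 (-1.03). None of the 10 lost the test against later times when 1 array was left out.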

How the results depend on the processing

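Of the genes named in the text, above and below, 104 passed at 3 h against 0 h. None of them changed sign under any of the 20 alternatives in which they were tested (86 under the stricter filter). Of the 104, 26 lost the call without at least 1 of the 4 arrays compared. With the compared groups alone 922 probe sets passed, 19 of the 104 genes lost the call, and the cause was not tested beyond the fewer arrays in that fit. Leaving out 1 array gave 1175 to 1697 calls at 3 h against 0 h, with the lowest counts without 0 h replicate 2 (1175) and 3 h replicate 2 (1184). Against later times it gave 591 to 1574, the lowest without 3 h replicate 2. With the replicate number as a block 1648 passed at 3 h against 0 h and 1378 against later times, and 1 of the 104 genes lost its call. Deviations of same-numbered 0 h and 3 h arrays correlated at 0.198, within a range of -0.231 to 0.198 over 15 pairs of groups, and nothing in the labels says that a number pairs arrays. Quantile normalization and median centring gave 1796 and 1789 calls (868 higher and 928 lower, and 966 higher and 823 lower) and moved the median of all probe sets by 0.03 and 0.05, and 2 of the 104 genes lost the call under median centring. Of the named genes that did not pass, 9 passed under at least 1 alternative. Values that did not pass and changed sign without 1 array were those of GTR2 (-0.66 to 0.16), CBL (-0.0435 to 0.0799), STZ (-1.12 to 1.67) and AT2G25510 (-0.055 to 0.70).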

Other observations

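Other named genes, all chosen one by one after their values were seen, also changed within 3 h. CHLM, a methyltransferase of chlorophyll synthesis, read 218.3 and 319.9 at 0 h and 81.0 and 72.6 at 3 h and fell by 1.79. PSAN, a photosystem I subunit, fell by 1.83, PSB27, a photosystem II assembly factor, by 1.57 and LYC, a lycopene cyclase, by 0.91. The beta-tubulin TUB1 fell by 1.04 from 1454 and 1908 to 933.6 and 704.5, and SIM, a cell cycle inhibitor, fell by 0.97. UPB1, a regulator of root peroxidases, fell by 1.03, a call lost without 0 h replicate 1 (-0.75). SUFE2, which activates the plastid cysteine desulfurase, rose by 1.23 from 340.7 and 440.3 to 792.6 and 1044. NDB2, an NADH dehydrogenase of mitochondria, rose by 1.05, and HYH, a light-signalling bZIP factor, by 1.24.

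A few genes were higher at 3 h than at 0 h and yet lower than at later times. AT1G75280 had mean signals of 791.6 at 0 h and 2658 at 3 h, and then 3692, 4670, 5579 and 7011 at 12, 24, 48 and 72 h. CP1, a cysteine proteinase, went from 125.1 to 477.2 at 3 h and to between 631.1 and 754.9 later. AT3G05400 went from 13.8, below the 40th percentile on both arrays, to 53.1 at 3 h and to 493.5 at 72 h. Such a pattern, past the threshold in both tests, was seen in 8 probe sets, and the opposite one in 1.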
